A study of Mus musculus with 2 samples.

Results

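The miR-9 and miR-124 genes of the mouse were examined in small RNA libraries, made for microRNA sequencing, of left cerebral cortex. They are Mir9-1, Mir9-2 and Mir9-3, and Mir124a-1, Mir124a-2 and Mir124a-3, that is 3 copies of each. These 6 rows of the deposited count tables were chosen by gene symbol in the GENCODE M21 annotation, out of 2202 listed microRNA (miRNA) genes. The rule uses no measured value, but it was set with earlier results of these data known. The tissue came from male B6CASTF1/J mice aged 10 days, an F1 hybrid of the inbred strains B6 and CAST. There was 1 group of 2 libraries, labelled biological replicates 2 and 1, and no other genotype, treatment, age or tissue is analysed here. Per the labels both specimens fall under a single strain-level donor entry but are numbered as separate males, so the spread between the libraries may be that between animals or may be technical.

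A miRNA gene is transcribed as part of a longer RNA, from which a hairpin is cut out and then trimmed to short strands from its arms, called 5p and 3p after the side of the hairpin they come from. The seed near the 5′ end of a strand pairs with messenger RNAs and lowers their output. miR-9 is expressed in neural progenitors and neurons and is known for regulating the balance between progenitor growth and neuronal differentiation. miR-124 is a neuron-enriched miRNA of the brain, known for repressing non-neuronal transcripts and the splicing repressor Ptbp1.

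The sequences of the miR-9 genes are shown because they set which reads can be given to a single copy. Both arms were identical in the 3 copies (RefSeq, GRCm38.p6). Capitals mark the seed, bases 2 to 8.
miR-9-5p: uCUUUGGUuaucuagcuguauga
miR-9-3p: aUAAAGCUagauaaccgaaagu

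Of the 1738 mature sequences in the reference table, none outside the 3 miR-9 genes carried the seed of miR-9-5p, and none carried that of miR-9-3p. Mir124a-1, Mir124a-2 and Mir124a-3 are named here without sequence.

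The hairpins of the 3 miR-9 genes follow, 5′ to 3′, with the 2 mature arms in capitals. Mir9-1 lies on the plus strand at chr3:88215598-88215686, Mir9-2 on the plus strand at chr13:83738814-83738885 and Mir9-3 on the plus strand at chr7:79505264-79505353 (mm10).
Mir9-1: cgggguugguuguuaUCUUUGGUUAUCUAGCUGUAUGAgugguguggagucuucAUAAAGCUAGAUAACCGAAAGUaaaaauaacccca
Mir9-2: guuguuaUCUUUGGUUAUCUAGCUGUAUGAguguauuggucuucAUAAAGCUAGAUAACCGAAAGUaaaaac
Mir9-3: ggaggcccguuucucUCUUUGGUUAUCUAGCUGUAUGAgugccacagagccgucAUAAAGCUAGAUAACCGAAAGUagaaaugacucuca

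Mir9-1 and Mir9-2 were the closest pair, with 70 of 72 aligned bases identical (97.2%). Mir9-3 shared 71 of 89 aligned bases with Mir9-1 (79.8%) and 64 of 72 with Mir9-2 (88.9%). Bases opposite a gap in the alignment were not counted, so these percentages leave out gaps and cover spans of unlike length. A read that lies within an arm fits all 3 loci, and only a read that runs past an arm can tell the copies apart. The shortest extensions of a whole arm that do so are printed next for each gene, with the bases beyond the arm in capitals.
Mir9-3, 1 base before miR-9-5p: Cucuuugguuaucuagcuguauga
Mir9-3, 2 bases after miR-9-3p: auaaagcuagauaaccgaaaguAG
Mir9-1, 4 bases after miR-9-5p: ucuuugguuaucuagcuguaugaGUGG
Mir9-2, 4 bases after miR-9-5p: ucuuugguuaucuagcuguaugaGUGU

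Mir9-3 thus differed from both other copies at the first base before miR-9-5p and at the second base after miR-9-3p. Mir9-1 and Mir9-2 first differed from each other 4 bases after miR-9-5p, 6 bases after miR-9-3p and 7 bases before miR-9-3p, and not at all in the 7 bases that both hairpins hold before miR-9-5p. Among all stretches of 22 bases, 60 of 69 in Mir9-3 (87.0%), 44 of 68 in Mir9-1 (64.7%) and 27 of 51 in Mir9-2 (52.9%) occurred in no M21 transcript of another locus. Of the 19 stretches in each hairpin that covered at least 18 bases of a mature arm, 10 were unique in Mir9-3, against 1 in Mir9-1 and 1 in Mir9-2. The transcripts do not cover the whole genome, so these counts are upper limits.

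**Figure D1:**
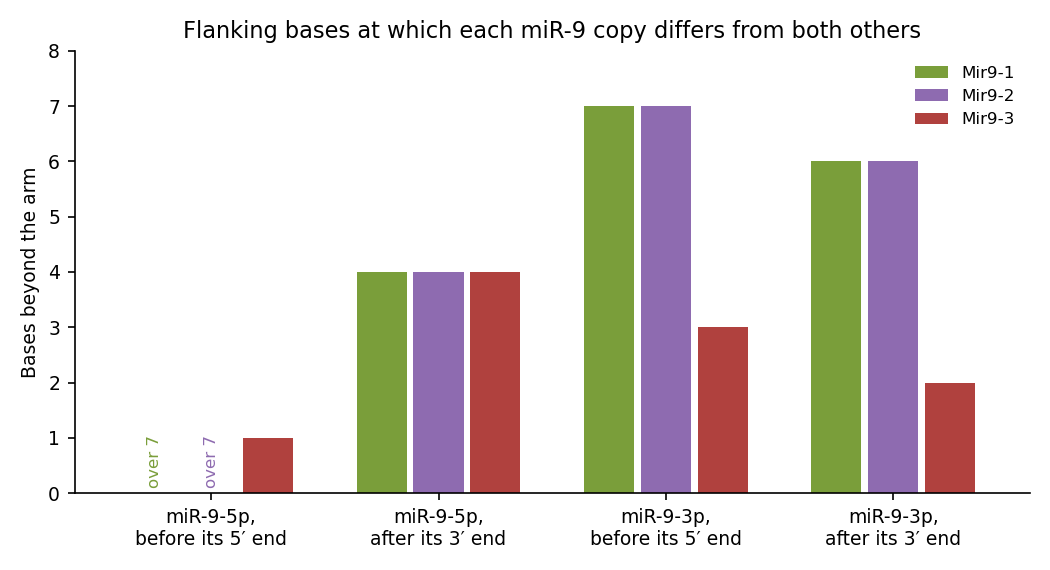
Number of bases beyond each mature arm at which a miR-9 hairpin differs from both other copies (bars, in bases), for Mir9-1, Mir9-2 and Mir9-3 on each side of the arms. Mir9-3 differs after 1 to 4 bases, while Mir9-1 and Mir9-2 need 4 to 7, or over 7 on the first side, where their hairpins show no difference.

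Of the 6 genes, 5 lie wholly inside a long intergenic noncoding RNA (lincRNA) gene on the same strand in M21, and no protein-coding gene overlaps any of them. Mir9-1 (ENSMUSG00000106493.1) is in an intron of Gm3764 and Mir9-3 (ENSMUSG00000093238.1) in an intron of Mir9-3hg. Mir9-2 (ENSMUSG00000065424.2) has all 72 bases in an exon of C130071C03Rik. Mir124a-1 (ENSMUSG00000065597.1), at chr14:64590657-64590741, has all 85 bases in an exon of Mir124a-1hg. Mir124a-2 (ENSMUSG00000093073.1), at chr3:17795662-17795770, lies within Mir124-2hg, and 27 of its 109 bases overlap an exon of 1 transcript. Mir124a-3 (ENSMUSG00000065454.2), at chr2:180894040-180894107, overlaps the start of the lincRNA Gm27032 by 3 bases. All 6 are on the plus strand of mm10.

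The deposited tables keep reads that mapped to more than 1 place in a row of their own, outside every gene. In replicate 2, 1750076 of 7432614 reads (23.5%) were assigned to a listed gene on its own strand, and in replicate 1, 2677910 of 9089257 (29.5%). A further 2104180 reads in replicate 2 (49.2% of mapped reads) and 3467794 in replicate 1 (51.2%) mapped to more than 1 place. Levels are given as assigned sense reads per 1000000 assigned sense reads (CPM), so 3 reads correspond to 1.71 CPM in replicate 2 and 1.12 CPM in replicate 1. A read of a mature miRNA spans the whole strand, and the values were not divided by hairpin length. The 4 neuron-associated markers Mir128-1, Mir137, Mir132 and Mir138-1 averaged 3193 to 13876 CPM, while the liver marker Mir122 averaged 50.4 CPM and the muscle markers Mir206 and Mir208a 23.7 and 13.0 CPM. Markers of other cell types in the tissue were also present, with the endothelial Mir126a at 11137 CPM in replicate 2 and 9622 CPM in replicate 1.

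By assigned reads the miR-9 genes were the better covered family, and Mir9-3 was its leading copy. Mir9-3 had 133 reads in replicate 2, or 76.0 CPM (95% Poisson interval 63.6 to 90.1), and 431 reads in replicate 1, or 161 CPM (146 to 177). Its mean was 118 ± 60.1 CPM (SD, n = 2), which ranked 210 among the 2202 listed genes. Mir9-1 had 53 reads in replicate 2, or 30.3 CPM (22.7 to 39.6), and 104 reads in replicate 1, or 38.8 CPM (31.7 to 47.1), a mean of 34.6 ± 6.05 CPM. Both replicates of Mir9-3 lay above both replicates of Mir9-1.

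Mir9-2 had far fewer assigned reads than the other copies in both libraries. It had 3 reads in replicate 2, or 1.71 CPM (0.354 to 5.01), and 9 reads in replicate 1, or 3.36 CPM (1.54 to 6.38), a mean of 2.54 ± 1.16 CPM. Mir9-1 therefore had 17.7 times the reads of Mir9-2 in replicate 2 (95% exact binomial interval 5.73 to 88.4) and 11.6 times in replicate 1 (5.86 to 26.0). The ranges of CPM of Mir9-3, Mir9-1 and Mir9-2 did not overlap. In the same order, 87.0%, 64.7% and 52.9% of their stretches of 22 bases were unique, and 10, 1 and 1 of the 19 stretches with at least 18 bases of a mature arm. The part of these differences in sequence in the read counts was not tested.

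Mir9-3 took most of the family's assigned reads in both libraries, and Mir9-2 the fewest. Reads that fit several copies are left out, and the copies differ in unique stretches, so these are not shares of all miR-9 reads. Mir9-3 took 133 of 189 reads in replicate 2 (70.4%, 95% exact binomial interval 63.3 to 76.8) and 431 of 544 in replicate 1 (79.2%, 75.6 to 82.6). Mir9-1 took 28.0% in replicate 2 (21.8 to 35.0) and 19.1% in replicate 1 (15.9 to 22.7). Mir9-2 took 1.59% in replicate 2 (0.329 to 4.57) and 1.65% in replicate 1 (0.759 to 3.12). The ratio of Mir9-3 to Mir9-1 reads was 2.51 in replicate 2 (1.81 to 3.52) and 4.14 in replicate 1 (3.34 to 5.18), and its difference between the libraries was not tested. Sequencing reads are not independent molecules, so all intervals given cover counting error only.

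The miR-124 genes were close to the lower limit of the libraries. Mir124a-1 had 2 reads in replicate 2 (1.14 CPM, 0.138 to 4.13) and 10 in replicate 1 (3.73 CPM, 1.79 to 6.87). Mir124a-3 had 2 reads in replicate 2 (1.14 CPM) and 7 in replicate 1 (2.61 CPM, 1.05 to 5.39). Mir124a-2 had 4 reads in replicate 2 (2.29 CPM, 0.623 to 5.85) and 0 in replicate 1. There 3 reads would be 1.12 CPM, and the 95% Poisson interval of the 0 reaches 1.38 CPM. The copy with the most reads differed between the libraries. Mir124a-2 held 4 of 8 miR-124 reads in replicate 2 and Mir124a-1 held 10 of 17 in replicate 1.

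Summed over its 3 copies, miR-9 had 108 CPM in replicate 2 (95% Poisson interval 93.1 to 125) and 203 CPM in replicate 1 (186 to 221), a mean of 156 ± 67.3 CPM (SD, n = 2). miR-124 had 4.57 CPM in replicate 2 (1.97 to 9.01) and 6.35 CPM in replicate 1 (3.70 to 10.2), a mean of 5.46 ± 1.26 CPM. The miR-9 genes had 23.6 times the assigned reads of the miR-124 genes in replicate 2 and 32.0 times in replicate 1. In order of mean level the genes ran Mir9-3, Mir9-1, Mir9-2, Mir124a-1, Mir124a-3 and Mir124a-2, and the order was the same per hairpin length. Neighbours were apart in both libraries at the top, between Mir9-3 and Mir9-1 and between Mir9-1 and Mir9-2. From Mir9-2 downward the ranges of neighbours overlapped. In tissue, a lower level from fewer cells of a type cannot be told apart from less RNA per cell.

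**Figure D2:**
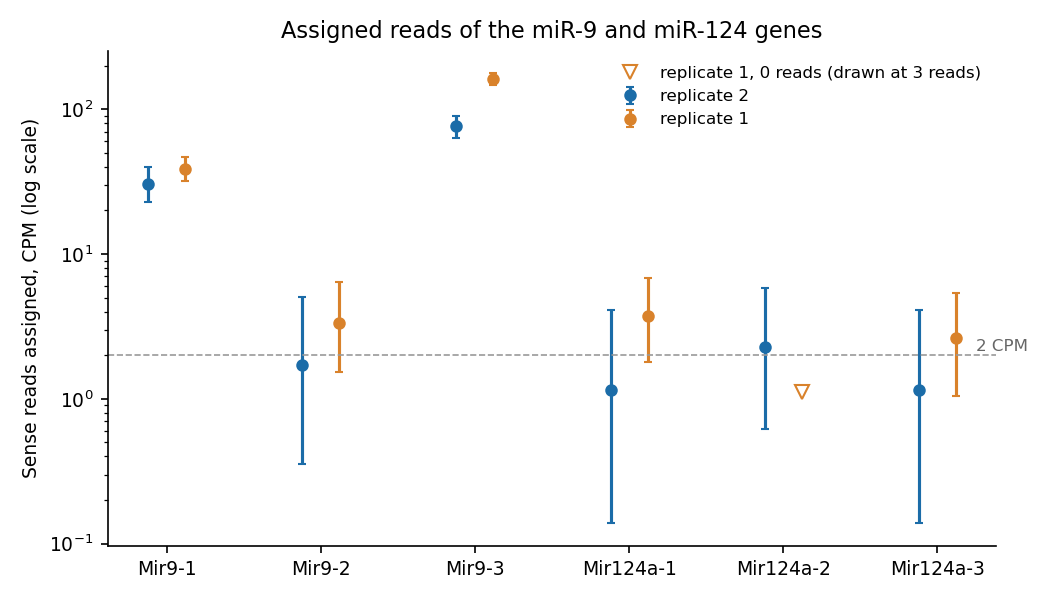
Assigned sense reads of the 6 genes in CPM (log scale), with replicate 2 left of replicate 1. Points are single libraries and bars their 95% Poisson intervals. The open triangle marks 0 reads, drawn at the level of 3 reads. Mir9-3 and Mir9-1 lie above 30 CPM in both libraries, and the other 4 genes lie near the dashed line at 2 CPM.

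Detection was set at 2 CPM in each of the libraries, which takes 3.50 reads in replicate 2 and 5.36 in replicate 1. Mir9-3 and Mir9-1 were detected, 2 of the 6 genes, against 442 of 2202 genes (20.1%) in the whole table. Every copy had at least 1 read in replicate 2, and all but Mir124a-2 had one in replicate 1. Together the 6 genes made up 0.0113% of what was assigned in replicate 2, and 0.0209% in replicate 1.

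A read that fits several places is counted for no gene, so the assigned counts leave out any such read of mature miR-9 or miR-124. Which part of a hairpin an assigned read covers is not given, so the counts are not limits for the mature strands. The 189 reads of the miR-9 genes equalled 0.00898% of the reads mapped to more than 1 place in replicate 2, and their 544 reads equalled 0.0157% in replicate 1. For every read assigned to a miR-9 gene there were 11133 such reads in replicate 2 and 6375 in replicate 1. For every read assigned to a miR-124 gene there were 263022 in replicate 2 and 203988 in replicate 1. How many of those reads were miR-9 or miR-124 cannot be read from the tables, which give 1 number for all families. Neither the abundance of the mature miRNAs nor their ratio follows from the assigned counts.

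**Figure D3:**
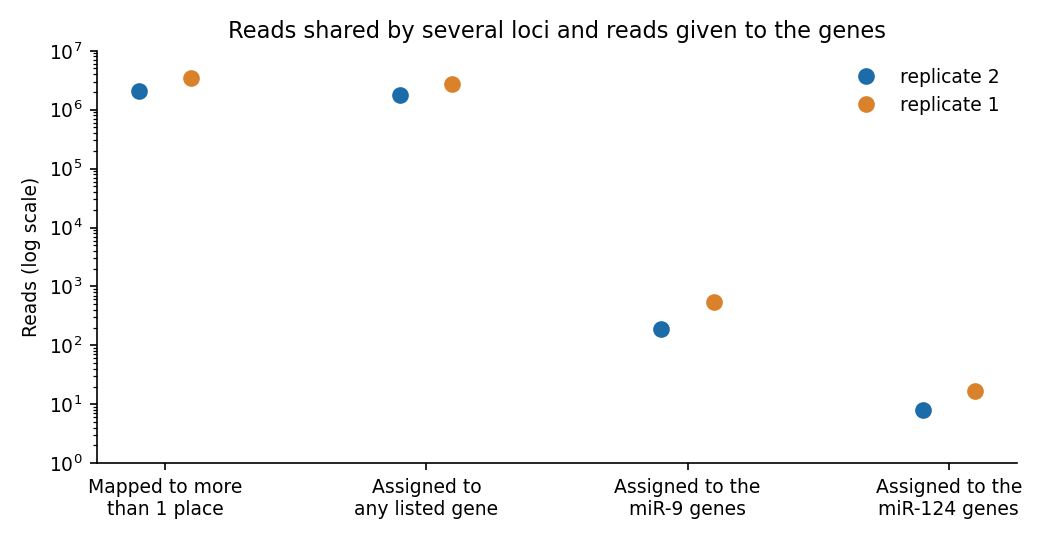
Reads per library (log scale) that mapped to more than 1 place, that were assigned to any listed gene, and that were assigned to the miR-9 and miR-124 genes, with replicate 2 left of replicate 1. The miR-9 and miR-124 genes hold 189 and 8 reads in replicate 2 beside 2104180 mapped to more than 1 place, and 544 and 17 in replicate 1 beside 3467794.

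A pair of other listed hairpins, each in the same host gene as Mir9-1 or Mir124a-1, had more assigned reads than these. Mir3093, in the host Gm3764, lies 340 bases upstream of Mir9-1 at chr3:88215171-88215257. In the reference table Mir3093 shares no mature arm with another listed gene. It had 73.7 CPM in replicate 2 and 71.7 CPM in replicate 1, a mean of 72.7 ± 1.42 CPM (SD, n = 2). That was 2.43 times the assigned reads of Mir9-1 in replicate 2 (95% exact binomial interval 1.75 to 3.42) and 1.85 times in replicate 1 (1.45 to 2.37). Reads within the arms of Mir9-1 fit its other copies and are left out, so the mature miRNAs are not compared. Mir3078, in the host Mir124a-1hg, lies 443 bases downstream of Mir124a-1 at chr14:64591185-64591271. Mir3078 is not in the reference table, so whether its arms are shared was not examined.

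Mir3078 had 58 reads in replicate 2 and 99 in replicate 1, that is 33.1 CPM in replicate 2 and 37.0 CPM in replicate 1, a mean of 35.1 ± 2.71 CPM. Its assigned reads were 29.0 times those of Mir124a-1 in replicate 2 (95% exact binomial interval 7.67 to 245) and 9.90 times in replicate 1 (5.16 to 21.3). Any read of Mir124a-1 that fits several places is left out, so here too the mature miRNAs are not compared. Neither Mir3093 nor Mir3078 passed the test between the libraries that is described with Mir9-3, with log2 ratios of 0.04 and -0.15 (Fisher's exact test, adjusted p = 0.890 and 0.698).

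A listed gene on the opposite strand covers Mir9-1 whole. Gm25641, at chr3:88215589-88215696 on the minus strand, is annotated in RefSeq with the arms of miR-9b, printed here with the seed in capitals because they are read from the other strand of the same hairpin.
miR-9b-5p: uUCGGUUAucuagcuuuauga
miR-9b-3p: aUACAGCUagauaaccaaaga

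Gm25641 had 0 reads on its own strand in both libraries, where 3 reads would be 1.71 CPM in replicate 2 and 1.12 CPM in replicate 1. All 53 reads of Mir9-1 in replicate 2 and all 104 in replicate 1 lay on the Mir9-1 strand. Mir9-3 had 0 reads on its opposite strand in replicate 2 and 2 in replicate 1, and the other 4 genes had 0 in both. When strand was disregarded, Mir9-1 and Gm25641 both had 0 reads, since reads over both genes were then given to neither.

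Replicate 2 was compared with replicate 1 by Fisher's exact test per gene, two-sided, with Benjamini-Hochberg adjustment over the 542 genes that reached 2 CPM in either library. A gene passed at an adjusted p below 0.05 together with a ratio of replicate 2 over replicate 1 of at least 1 on the log2 scale, in either direction. The test sets 1 library against another and says nothing of a condition. All 6 genes entered it, but Mir9-2, Mir124a-1 and Mir124a-3 reached 2 CPM only in replicate 1, and Mir124a-2 only in replicate 2, so those 4 had to differ to some degree. Mir9-3 was the 1 gene of the 6 that passed, and it was lower in replicate 2. Of all 542 genes, 65 (12.0%) passed, 31 higher (5.72%) and 34 lower (6.27%) in replicate 2. The log2 ratio of Mir9-3 was -1.08 (95% counting interval -1.37 to -0.80, adjusted p = 7.22e-15 by Fisher's exact test).

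Of all 542 tested genes, 133 (24.5%) had a log2 ratio at least as large in size as that of Mir9-3. The 542 include genes at 2 CPM in only 1 library, which had to differ to some degree. The median size of the log2 ratio was 0.46 among tested genes and 0.35 among the 442 detected in both libraries. Mir9-1 had a log2 ratio of -0.35 (-0.86 to 0.13, Fisher's exact test, adjusted p = 0.246), and Mir9-2 one of -0.83 (-3.49 to 1.03, adjusted p = 0.526 by the exact test). Mir124a-1 had -1.46 (-4.94 to 0.52, adjusted p = 0.246 by the exact test) and Mir124a-3 had -0.97 (-4.50 to 1.20, adjusted p = 0.627 by the exact test). Mir124a-2 was the only one of the 6 with more reads in replicate 2, at 4 against 0 (adjusted p = 0.0568 by the exact test). It was 2.04-fold higher when 3 reads stand for the 0 and the 4 reads are taken as exact. The 95% counting interval of its log2 ratio begins at 0.01 and has no upper end. The intervals of Mir9-2, Mir124a-1 and Mir124a-3 span log2 ratios on both sides of 0.

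The libraries also differed in unmapped reads, which made up 42.4% of the reads of replicate 2 and 25.5% of those of replicate 1. The erythroid markers Mir451a and Mir144 were lower in replicate 2 as well, at 20.6 and 10.3 CPM in replicate 2 and 737 and 52.3 CPM in replicate 1. The 4 neuron-associated markers did not move together, with Mir128-1 and Mir137 at 9510 and 8069 CPM in replicate 2 and 18242 and 11808 CPM in replicate 1, Mir132 at 9221 CPM in replicate 2 and 3886 CPM in replicate 1, and Mir138-1 at 3235 CPM in replicate 2 and 3151 CPM in replicate 1. The oligodendrocyte markers Mir219a-2 and Mir338 were higher in replicate 2, at 639 and 766 CPM in replicate 2 and 337 and 476 CPM in replicate 1. The leukocyte markers Mir142, Mir223 and Mir150 had 80.0, 15.4 and 628 CPM in replicate 2 and 91.1, 14.6 and 844 CPM in replicate 1. The mural markers Mir143 and Mir145a had 3872 and 205 CPM in replicate 2 and 3821 and 195 CPM in replicate 1. No marker was at 0. The part of these differences in the ratio of Mir9-3 was not tested.

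**Figure D4:**
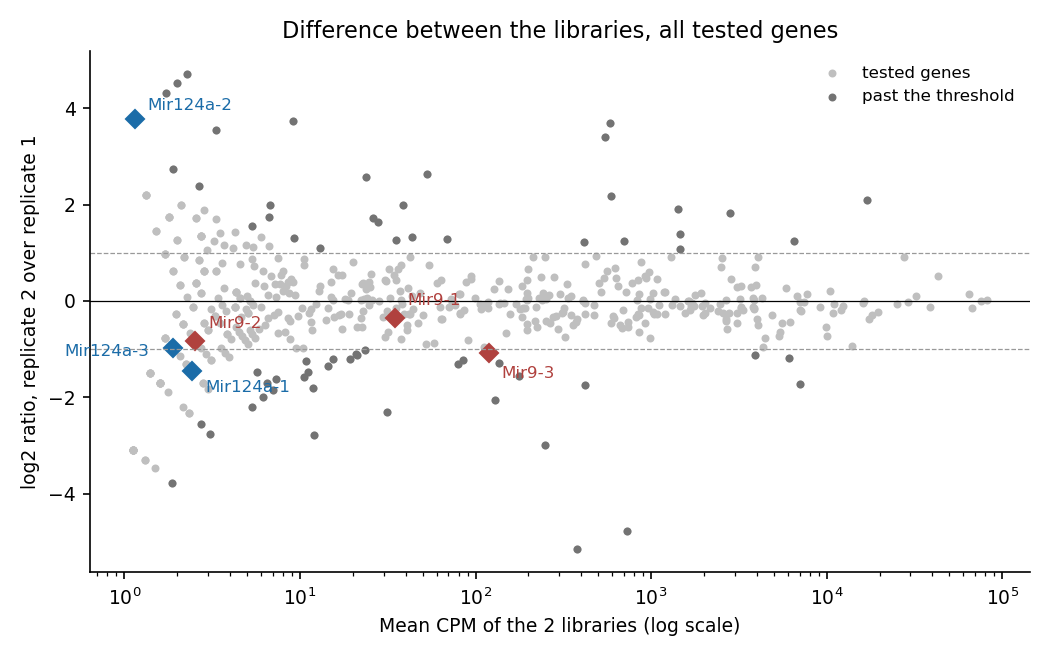
Log2 ratio of replicate 2 over replicate 1 (0.5 reads added to each count) against mean CPM (log scale) for the 542 tested genes, with dark points past the threshold and diamonds for the miR-9 (red) and miR-124 (blue) genes. Mir9-3 lies just past the line at -1, and Mir9-1 lies near 0. The height of Mir124a-2 rests on 4 reads against 0 and on the added 0.5 reads.

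Genes whose mature arms in the reference table all recur at another locus were compared with other listed genes. Of the listed genes 1018 had mature sequences in the reference table, which leaves out the miR-124 genes. Of 33 genes whose arms in the reference table all recur at another listed locus, the miR-9 genes included, 7 were detected (21.2%). Of 57 that share some but not all of these arms, 40 were detected (70.2%), and of 928 that share none of them, 354 (38.1%). An arm or copy missing from the reference table could not be counted, so genes classed as sharing none may still share an arm. The difference between these shares was not tested.

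Mir9-3 was exceeded in mean CPM by 3 of the 33 genes (9.09%), Mirlet7c-2, Mir219a-2 and Mir129-1, by 18 of the 57 (31.6%) and by 172 of the 928 (18.5%). Among 40 families of listed genes with at least 1 identical arm, the miR-9 genes ranked 14 by their summed CPM. The highest sums were 18337 ± 7826 CPM (SD, n = 2) for Mir128-1 and Mir128-2, 6861 ± 307 CPM for Mir181b-1 and Mir181b-2, and 4756 ± 131 CPM for Mir138-1 and Mir138-2. In each of these 3 pairs the copies differ in an arm. Among the 10 families in which every arm held by the reference table is shared, the miR-9 genes had the highest sum. Next came Mir199a-1, Mir199a-2 and Mir199b at 4.89 ± 2.06 CPM, and the other 8 had no assigned read.

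**Figure D5:**
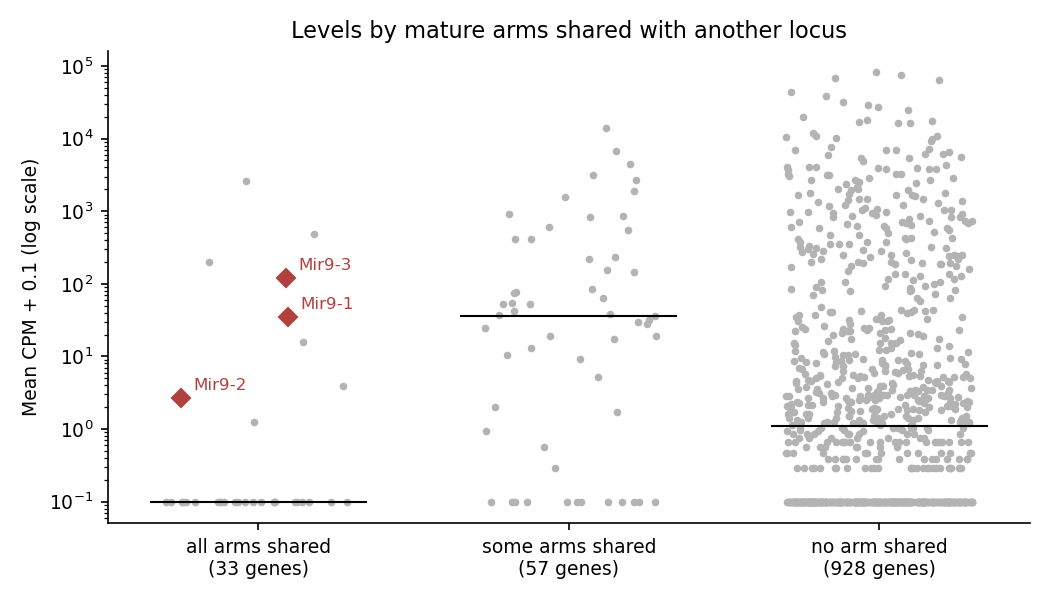
Mean CPM plus 0.1 (log scale) of 1018 listed genes by whether all, some or none of their mature arms in the reference table recur at another listed locus. Points are genes, black lines are medians and diamonds the miR-9 genes. Mir9-3 and Mir9-1 lie high among the 33 genes that share all such arms, where most genes have no read.

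The levels were set beside 20 other neural miRNA genes, a list drawn up with earlier results of these data known, so that its levels may follow from the choice. All 20 were detected, with a median of 1088 CPM, beside a median of 0 over all 2202 genes. Mean levels in the list ran up to 13876 ± 6174 CPM for Mir128-1, followed by 9938 ± 2644 CPM for Mir137, 7175 ± 744 CPM for Mir330 and 6554 ± 3773 CPM for Mir132 (SD, n = 2). Of the 20 genes, 17 exceeded Mir9-3 (all but Mir7-1, Mir218-2 and Mir218-1) and 19 exceeded Mir9-1 (all but Mir218-1). The lowest, Mir218-1, averaged 10.3 CPM, above Mir9-2 and the 3 miR-124 genes. Of the 20, 11 share some of their arms in the reference table with another listed gene, Mir129-1 shares all and 8 share none. The copy Mir129-2 shares only some of its arms, so Mir129-1 need not share every arm it has. Reads within an arm that no other locus holds can be assigned, while those within the miR-9 arms cannot. The levels in this comparison are thus unlike measures, and the mature miRNAs are not ranked by them. For miR-124, too, any read that fits several places is left out. In the library test Mir132 was higher (log2 ratio 1.25) and Mir153 lower (54.9 CPM in replicate 2 and 441 CPM in replicate 1) in replicate 2, 1 of the 20 each way beside 5.72% and 6.27% of all tested genes.

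With 2 libraries, a pattern is only a pair of levels, and likeness was measured as the distance between log2 CPM values over both. The nearest genes to Mir9-3 were Snord43, listed by M21 with gene type miRNA, at 76.0 CPM in replicate 2 and 148 CPM in replicate 1, Mir101a at 78.3 CPM in replicate 2 and 192 CPM in replicate 1, and Mir6236 at 65.7 CPM in replicate 2 and 115 CPM in replicate 1. Their distances were 0.12, 0.26 and 0.52. The nearest to Mir9-1 were Mir3078, at a distance of 0.15, Mir7047 at 29.1 CPM in replicate 2 and 33.6 CPM in replicate 1 (0.21), and Mir8112 at 35.4 CPM in replicate 2 and 42.9 CPM in replicate 1 (0.27).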

How the data were processed

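Raw read counts for each miRNA gene were deposited by the authors, 1 table a library, with mm10 and GENCODE M21 named in the deposited sample text. Not given in the sources used here are the tools for trimming, alignment and counting. From the layout and values, the 3 count columns were read as counts without strand, on the gene's strand (used here) and on the opposite one. The 4 rows naming no gene stayed out of the totals. Shares of unmapped reads and of reads mapped to more than 1 place are in the report. Reads outside listed genes made up 5.74% in replicate 2 and 6.93% in replicate 1. The row of reads over more than 1 gene was not added to the number of all reads. Without strand it held 108944 reads in replicate 2 and 180955 in replicate 1. All 2202 identifiers matched M21. Reads of both arms fall in 1 count, and CAST alleles were not considered.

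Log2 ratios had 0.5 reads added. The library test used scipy 1.17.1 in Python 3.11.15 and was tested on simulated data, and TMM totals came from edgeR 4.0.16 in R 4.3.3. RefSeq (GRCm38.p6) sequences matched 3 of the 6 genes. Unique stretches were searched on both strands of M21 transcripts. The genes and lists were chosen with earlier results of these data known. Named were the 6 genes, those opposite them or sharing a seed, the 3 nearest in level to Mir9-3 and Mir9-1, the 4 highest of the neural list, the 3 highest families and the markers. Mir3093, the Mir199 genes, Mirlet7c-2 and further genes of the neural list were named after their values were seen. Alternatives covered the count column, totals, thresholds, pseudocount, stretch length and leaving out a library.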

Additional observations from a re-analysis of the deposited data

Results flagged for a closer look

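Gm25641, the miR-9b gene on the opposite strand of Mir9-1, carried reads in the column of opposite-strand counts, from which no level or test above was computed. It had 53 such reads in replicate 2 and 104 in replicate 1, more than the 3 that stand for a count of 0 here. These equal the sense reads of Mir9-1 in each library. Gm25641 covers Mir9-1 whole on the other strand, so they are the same reads tallied again. As sense reads of Mir9-1 they did enter the levels and the test above. Gm25641 had 0 reads on its own strand in both libraries.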

How the results depend on the processing

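With reads mapped to more than 1 place added to the denominator, mean levels were 52.3 CPM for Mir9-3, 15.3 for Mir9-1, 1.12 for Mir9-2, 0.829 for Mir124a-3, 68.8 for the miR-9 genes summed and 2.42 for the miR-124 genes summed. With the unstranded column Mir9-1 was at 0 CPM. With 1 read or more in both libraries as the limit, 5 of the 6 genes were detected, and leaving out 1 library gave 3 (without replicate 1) to 5 (without replicate 2). Without a minimum log2 ratio the library test called 229 genes, of which 94 were higher in replicate 2 and 135 lower. Mir9-3 stayed past the threshold under all 7 alternatives run, with log2 ratios between -1.09 and -1.02. The alternative with reads mapped to more than 1 place in the test's totals was chosen after seeing the data. Unique stretches of 25 bases made up 95.5% of Mir9-3. With 2 libraries, leaving out 1 always moves a mean by less than their SD, so it shows nothing of how stable a level is. The library test needs both libraries, so it was not run with 1 left out. No paired analysis was possible because there was 1 group. At 0 to 10 reads a library, counting error limits Mir9-2 and the miR-124 genes.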
